A study of Homo sapiens with 15 samples.

Results

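The HOXC cluster holds 9 protein-coding genes, HOXC4, HOXC5, HOXC6, HOXC8, HOXC9, HOXC10, HOXC11, HOXC12 and HOXC13, which were taken by symbol from count tables of 25681 gene symbols in all. All 9 had counts in every library. Their RNA was measured by RNA-seq in the HSSYII line of synovial sarcoma cells, in which the fusion gene is SS18-SSX1. In the first experiment the cells received 0.0001% DMSO or 100 nM dBRD9A, a compound that directs the BRD9 protein to degradation, for 6 hr. In the second the cells were infected with a GFP-tagged lentivirus carrying shRenilla, a control hairpin, shSS18-SSX1-1 or shSS18-SSX1-2 at a multiplicity of infection of 1.0, without drug selection, and collected at 96 hr. Each of the 5 groups had 3 libraries, all from this single cell line.

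HOX genes encode homeodomain transcription factors that give cells along the body axis and the limbs their positional identity. Vertebrates keep them in HOXA, HOXB, HOXC and HOXD clusters, where the order of the genes on the chromosome follows the order of their use from head to tail, and where Polycomb complexes hold unused genes silent. SS18-SSX1 joins a subunit of BAF chromatin remodelling complexes to part of an SSX protein, and BRD9 is a bromodomain subunit of one form of these complexes. The comparisons address which HOXC transcripts depended on the fusion and which responded to loss of BRD9.

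On GRCh37, the build of the deposited files, the cluster spans chromosome 12 from 54332615 to 54449814, or 117200 bases, with every HOXC gene on the plus strand (GENCODE annotation). HOXC13 (54332615 to 54340328), HOXC12 (54348687 to 54352740), HOXC11 (54366910 to 54371427) and HOXC10 (54378849 to 54384063) form its 5′ end. HOXC9 (54388679 to 54397121) and HOXC8 (54402769 to 54406553) follow. HOXC6 (54384408 to 54424607), HOXC5 (54426834 to 54429145) and HOXC4 (54410715 to 54449814) end last, in that order. The annotated span of HOXC6 starts before HOXC9, takes in HOXC9 and HOXC8, and overlaps that of HOXC4, which takes in HOXC5. Annotated exons of HOXC4 and HOXC6 share 484 bases, and those of HOXC6 and HOXC9 share 73. Antisense genes run through the cluster. HOXC13-AS shares 172 exon bases with HOXC13, HOXC-AS3 shares 63 with HOXC10, and HOXC-AS2 shares 163 with HOXC9. HOTAIR (54356092 to 54368740, minus strand) crosses the start of HOXC11 without any shared exon base. The strand setting of the counting is unknown here, so reads in these stretches cannot be assigned to one strand.

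The RefSeq promoter table, made on GRCh38.p14, lists a single window for both HOXC4 and HOXC5. Its 250 bases before the start are shown because RefSeq lists them for both genes. In the GENCODE annotation they lie just before the start of HOXC4 alone, and the start of HOXC5 is 16119 bases further along. They match GRCh37 exactly at 1 place, chr12:54410422-54410671, plus strand. Capitals mark each CCAAT box, read here on the minus strand as ATTGG.
HOXC4 and HOXC5: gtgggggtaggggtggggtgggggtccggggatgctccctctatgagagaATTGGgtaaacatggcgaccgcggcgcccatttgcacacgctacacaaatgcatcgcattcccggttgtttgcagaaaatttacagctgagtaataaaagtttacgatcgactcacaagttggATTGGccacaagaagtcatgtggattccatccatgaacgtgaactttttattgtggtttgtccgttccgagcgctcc
The window holds 2 CCAAT matches, a motif found on either strand in 32% of 35116 promoter windows of the same length. The searched letters TATAAA (10.7% of windows), GGGCGG (42.6%) and TGATTNAT, a PBX and HOX half-site pair (2.48%), were not in it on either strand.

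Levels are given as TMM CPM, counts scaled to library size after adjusting all 15 libraries by TMM, a method that assumes that most genes keep their level. Total counts were 18580419 to 27031647 per library, and raw counts of the members ran from 202 (HOXC5, shSS18-SSX1-1 replicate 2) to 4240 (HOXC10, DMSO replicate 2). shRenilla replicate 1 stood apart from its group, with chi-square values per degree of freedom of 36.5 and 27.0 against the other shRenilla libraries, where no other pair of replicates exceeded 9.85. As a check of the knockdown, SSX1 was at 55.4 to 76.5 CPM over the shRenilla libraries, at 18.6 to 20.8 CPM with the first hairpin and at 27.6 to 29.0 CPM with the second. SS18 was at 156 to 181, 109 to 112 and 121 to 126 CPM, in the same order. Those rows count the fusion together with the unfused genes. Of the 7 synovial sarcoma markers listed, 6 passed the filter on low counts, TLE1 was at 175 to 201 CPM in all libraries, and CD99 had 0 counts in every library. Why CD99 had no counts was not looked into, so its RNA cannot be called absent from the cells. On knockdown SSX1 (-1.42), BCL2 (-0.64) and SS18 (-0.56) were called lower on the log2 scale and VIM (1.07) higher, and TLE1 and TWIST1 were not called. The summed level of the list, most of it VIM, was 1629 to 1804 CPM with shRenilla and 2615 to 3177 CPM in the hairpin libraries. SSX1 and SS18 are the genes joined in the targeted fusion, and the part of the other shifts in the HOXC values was not tested. PTPRC of leukocytes and PECAM1 of endothelium stayed under 0.1 CPM in each library. Nothing states that libraries of a group came from separate cultures. The p-values therefore cover the variation among 3 libraries, part or all of which could be technical.

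The members were transcribed along the whole cluster, while the HOXA and HOXD clusters were near 0. Summed over the 9 members, DMSO libraries held 796 ± 17.9 CPM of HOXC transcripts and shRenilla libraries 613 ± 6.93 CPM (SD, n = 3 for both). The 10 HOXB genes summed to 638 ± 18.8 and 714 ± 19.9 CPM. No HOXA gene passed 0.281 CPM and no HOXD gene passed 0.682 CPM in any library.

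**Figure D1:**
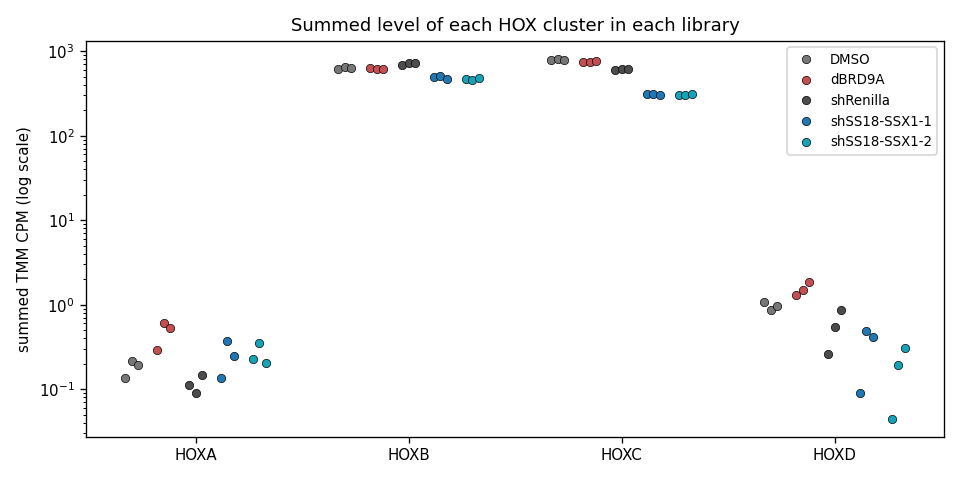
Summed TMM CPM of the genes of each HOX cluster (log axis), 1 point per library, coloured by group. HOXB and HOXC sit far above the other clusters in all 15 libraries, with the HOXC sums of both hairpin groups between 302 and 314 CPM, and HOXA and HOXD stay at or below 1.83 CPM.

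Levels can be compared between genes only per length, which was done for the 6 members with a single transcript row, using the canonical GENCODE transcript. The counts are per RefSeq transcript, whose length can differ, so the order of the genes below holds only for the GENCODE lengths. With DMSO, HOXC10 was the highest at 90.7 ± 2.05 CPM per kilobase (SD, n = 3), followed by HOXC9 at 53.5 ± 1.16, HOXC13 at 48.7 ± 1.00, HOXC12 at 44.6 ± 3.07, HOXC11 at 30.3 ± 0.816 and HOXC8 at 18.4 ± 0.203. Among neighbours in this order, only HOXC13 (47.5 to 49.4) and HOXC12 (41.1 to 46.8) came within 1 CPM per kilobase of each other, and no library of one neighbour reached the other. HOXC10 also led in every other group, down to 23.1 ± 1.87 and 23.9 ± 2.87 CPM per kilobase with the hairpins, where its range (20.7 to 26.3 with shSS18-SSX1-2) took in that of HOXC9 (21.9 to 22.6).

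After 6 hr of dBRD9A, HOXC13 rose while its neighbours HOXC12 and HOXC11 fell, together with HOXC6 and, less firmly, HOXC4. All changes were small, at most 1.24-fold. HOXC5, HOXC8, HOXC9 and HOXC10 did not pass the test. Calls were made at an adjusted p of less than 0.05 from edgeR's quasi-likelihood test, with Benjamini-Hochberg adjustment over all 13652 genes tested. Of these genes, 17.7% were called higher and 18.2% lower. Of the 9 members, 1 was called higher and 4 lower. The median log2 fold change of the members was -0.11, against 0.01 for all genes.

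HOXC13, the 5′-most gene, which also acts in hair and nail formation, was at 112, 116 and 116 CPM with DMSO and at 139, 143 and 142 CPM with dBRD9A. All 3 treated libraries lay above all 3 controls. Its log2 fold change was 0.31 (standard error 0.0347, edgeR adjusted p = 2.45e-08), and it was called higher in each of the 17 alternative analyses. Its antisense neighbour HOXC13-AS went the same way, from 11.9, 11.3 and 12.6 CPM to 14.5, 15.6 and 15.7 CPM. The groups did not overlap, and the log2 fold change of HOXC13-AS was 0.37 (standard error 0.0736, edgeR adjusted p = 0.000181). HOXC13-AS shares 172 exon bases with HOXC13, so reads of HOXC13 could be counted in it, and their part was not tested.

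HOXC11 was at 96.5, 102 and 97.8 CPM with DMSO and at 85.7, 85.2 and 79.6 CPM with dBRD9A, a log2 fold change of -0.23 (standard error 0.0396, edgeR adjusted p = 3.05e-05). HOXC12 was at 134, 153 and 150 CPM with DMSO and at 122, 130 and 127 CPM with dBRD9A, a log2 fold change of -0.20 (standard error 0.0405, edgeR adjusted p = 0.000290). Neither gene's groups overlapped. HOTAIR, a long noncoding RNA that starts inside HOXC11, runs toward HOXC12 on the other strand and has been studied for its link to Polycomb, fell from 64.3, 66.2 and 61.1 CPM to 51.0, 54.2 and 51.6 CPM. That was a log2 fold change of -0.28 (standard error 0.0439, edgeR adjusted p = 8.82e-06), again with no overlap. The opposite changes therefore lay at start sites 16072 bases apart, those of HOXC13 and HOXC12.

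HOXC6 was at 76.2, 73.2 and 73.3 CPM with DMSO and at 67.1, 61.7 and 69.4 CPM with dBRD9A, with no overlap and a log2 fold change of -0.16 (standard error 0.0439, edgeR adjusted p = 0.00531). Without dBRD9A replicate 2, its lowest library, HOXC6 was not called (-0.11, edgeR adjusted p = 0.0958), and 3 members in all were called. HOXC4 was at 42.4, 44.6 and 38.1 CPM against 37.5, 36.2 and 38.9 CPM, so the groups overlapped. Its log2 fold change was -0.14 (standard error 0.0536, edgeR adjusted p = 0.0358), and it was lost in 9 of 17 alternatives, including those without DMSO replicate 1 (adjusted p = 0.0572), DMSO replicate 2 (0.155), dBRD9A replicate 1 (0.0889) or dBRD9A replicate 2 (0.159). With the spread estimated over all 15 libraries, 2 members were called, HOXC13 and HOXC11.

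The members that were not called had narrow intervals. For HOXC10 the log2 fold change was -0.07 (95% interval -0.14 to -0.0011, edgeR adjusted p = 0.106). HOXC9 was at -0.09 (-0.17 to -0.01, edgeR adjusted p = 0.0596) and HOXC8 at -0.11 (-0.20 to -0.01, edgeR adjusted p = 0.0646). In these 3 genes every dBRD9A library lay below every DMSO library. The share of all genes that separate this way was not counted, so the separation adds nothing to the test. HOXC5 was at -0.02 (-0.17 to 0.12, edgeR adjusted p = 0.837), with overlapping groups.

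Knockdown of SS18-SSX1 lowered all 9 HOXC genes. No hairpin library reached the shRenilla range in any of them, but the share of all genes that separate this way was not counted. The fall was deepest at HOXC10, HOXC9, HOXC12 and HOXC11, at 2.10-fold to 3.10-fold, and shallowest at HOXC8, at 1.36-fold. Summed over the members, the level went from 613 ± 6.93 CPM with shRenilla to 308 ± 4.05 CPM with the first hairpin and 307 ± 5.83 CPM with the second (SD, n = 3 for all). For the mean of both hairpins against shRenilla, edgeR called 22.1% of 14269 genes lower, 5.90% lower past 1.5-fold, and 22.5% higher. Of the members, 9 of 9 were called lower and 7 of 9 lower past 1.5-fold, or 8 of 9 with the coding row of HOXC5, which was 1.78-fold lower. The median log2 fold change was -0.75 for the members and -0.01 for all genes. In bulk RNA, fewer cells with these transcripts and less transcript per cell cannot be told apart.

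**Figure D2:**
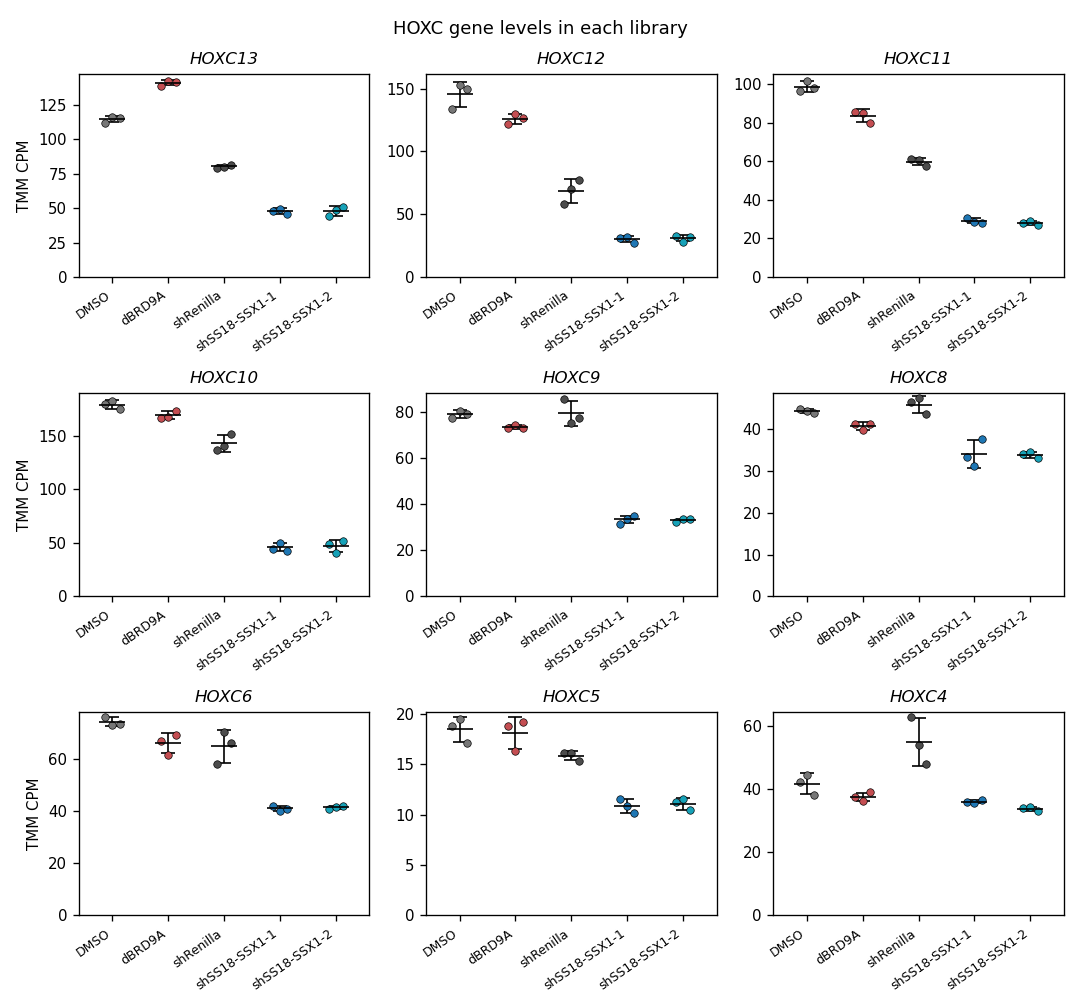
TMM CPM of each HOXC gene in the 15 libraries, 5′-most gene first, with a point per library, a bar at the mean and error bars of 1 SD (n = 3). Both hairpin groups lie below shRenilla in all 9 panels, and HOXC13 is the 1 gene that is clearly higher with dBRD9A than with DMSO.

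HOXC10, a hindlimb and lumbar gene, had the largest change. It was at 137, 140 and 152 CPM with shRenilla, at 44.6, 49.8 and 42.7 CPM with shSS18-SSX1-1 and at 48.5, 40.9 and 52.0 CPM with shSS18-SSX1-2. No hairpin library came near the controls, and the log2 fold change was -1.63 (standard error 0.0793, edgeR adjusted p = 1.82e-09). HOXC9, which is used in the thoracic region, was at 85.5, 75.2 and 77.3 CPM with shRenilla, at 31.5, 33.6 and 34.7 CPM with the first hairpin and at 32.3, 33.4 and 33.3 CPM with the second. Its log2 fold change was -1.27 (standard error 0.0698, edgeR adjusted p = 5.52e-09).

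HOXC12 was at 58.4, 70.4 and 77.1 CPM with shRenilla, at 31.3, 32.2 and 27.2 CPM with shSS18-SSX1-1 and at 32.8, 28.2 and 32.0 CPM with shSS18-SSX1-2. Its controls were the most spread of the 5′ genes, with replicate 1 the lowest, and the log2 fold change was -1.17 (standard error 0.0893, edgeR adjusted p = 1.56e-07). HOXC11 was at 61.1, 60.9 and 57.5 CPM with shRenilla, at 30.8, 28.8 and 28.1 CPM with the first hairpin and at 27.9, 28.8 and 26.9 CPM with the second. That is a log2 fold change of -1.07 (standard error 0.0664, edgeR adjusted p = 1.76e-08). HOXC13 was at 79.5, 80.2 and 81.5 CPM with shRenilla, at 48.2, 49.6 and 45.7 CPM with the first hairpin and at 44.2, 49.0 and 50.8 CPM with the second. It changed less than its neighbours, by -0.75 on the log2 scale (standard error 0.0657, edgeR adjusted p = 5.18e-07), and the 95% interval of HOXC13 (-0.89 to -0.61) did not reach those of HOXC12 (-1.36 to -0.98) and HOXC11 (-1.22 to -0.93).

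The 3′ genes changed less than the centre of the cluster. HOXC8 was at 43.6 to 47.5 CPM with shRenilla and at 31.1 to 37.7 CPM over the 6 hairpin libraries, a log2 fold change of -0.44 (standard error 0.0752, edgeR adjusted p = 0.000294). HOXC6 was at 57.9 to 70.4 CPM against 40.0 to 42.1 CPM, HOXC5 at 15.3 to 16.1 against 10.2 to 11.6, and HOXC4 at 48.0 to 62.9 against 33.1 to 36.5. Their log2 fold changes were -0.66 for HOXC6, -0.53 for HOXC5 and -0.66 for HOXC4 (standard errors 0.0691, 0.0830 and 0.0842, edgeR adjusted p at most 0.000126). Next to each other on the chromosome, HOXC9 (95% interval -1.41 to -1.12) and HOXC8 (-0.60 to -0.28) fell by unequal amounts, with intervals that did not meet.

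**Figure D3:**
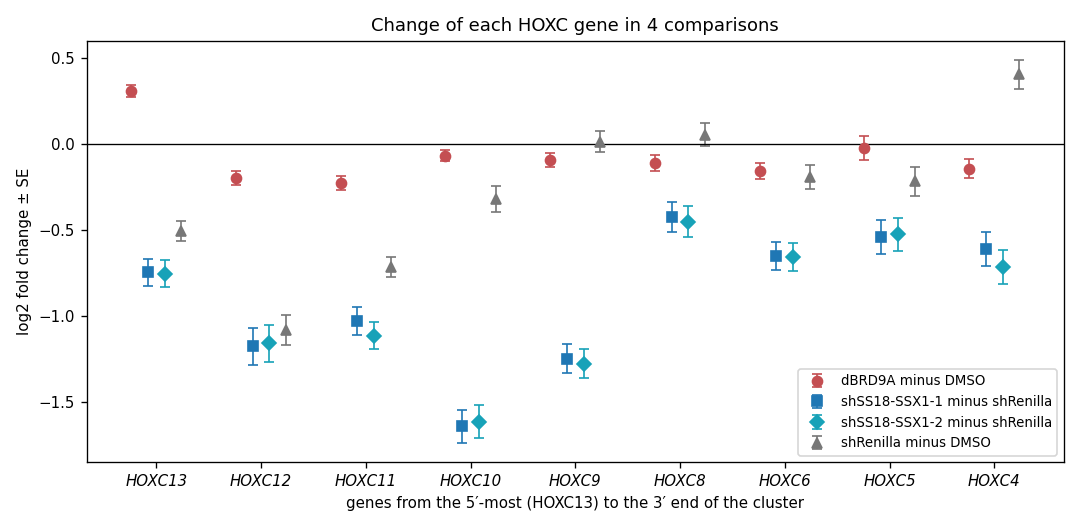
log2 fold change of each HOXC gene in chromosomal order, with error bars of 1 standard error from the edgeR fits, for dBRD9A against DMSO, each hairpin against shRenilla, and shRenilla against DMSO. The hairpins fall together at every gene, deepest at HOXC10 (-1.64 and -1.62), and HOXC13 is the 1 member above 0 with dBRD9A (0.31).

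Without shRenilla replicate 1, the library that stood apart, all 9 genes were again called lower. The log2 fold change moved most for HOXC4, to -0.53, whose highest control level (62.9 CPM) was in that library, while HOXC10 stayed at -1.64 and HOXC12 went to -1.25. The count of 9 lower held under each of the 20 alternatives.

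Each hairpin alone gave the same count. With shSS18-SSX1-1, 9 of 9 members were called lower, as were 19.5% of all genes. With shSS18-SSX1-2, 9 of 9 members were again called lower, as were 15.9% of all genes. Both comparisons share the shRenilla libraries. HOXC10 changed by -1.64 and -1.62 on the log2 scale with the first and the second hairpin, HOXC9 by -1.25 and -1.28, and HOXC13 by -0.75 and -0.76. Set directly against each other, the hairpins differed in 0.147% of all genes (21 genes, or 112 without shRenilla replicate 1) and in 0 of the 9 members. At an unadjusted p under 0.05, edgeR gave 0 members as well, and DESeq2 and limma each called 0. The largest difference among the members was that of HOXC4, -0.11 (95% interval -0.32 to 0.11), and the interval of HOXC10 was -0.18 to 0.24 around 0.03. Over the members these intervals reached as far as -0.32 (HOXC4) and 0.25 (HOXC12), so differences within them cannot be seen here.

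The noncoding RNAs of the locus mostly fell with the genes. Of 11 with a row in the tables, 7 were tested, 5 were called lower and 0 were called higher on knockdown (edgeR). Of all genes, 22.1% were called lower and 22.5% higher. HOTAIR was at 50.5, 59.1 and 57.4 CPM with shRenilla, at 23.2, 22.2 and 22.5 CPM with shSS18-SSX1-1 and at 26.6, 24.5 and 26.0 CPM with shSS18-SSX1-2. The groups were far apart, with a log2 fold change of -1.21 (standard error 0.0694, edgeR adjusted p = 8.29e-09). HOXC-AS3, antisense to HOXC10, was at 9.33, 9.49 and 12.2 CPM with shRenilla and at 3.11 to 4.58 CPM in the hairpin libraries. Its log2 fold change was -1.48 (standard error 0.137, edgeR adjusted p = 1.00e-06), close to that of HOXC10 itself. HOXC-AS3 shares 63 exon bases with HOXC10, and its canonical GENCODE transcript has 368 bases. With the strand setting unknown, reads of HOXC10 there could be counted in HOXC-AS3, and their part was not tested. HOXC-AS1 changed by -1.36 and HOXC-AS2 by -0.55, both from levels under 3 CPM, and LOC400043 by -0.31.

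HOXC13-AS, unlike HOXC13, did not pass the test on knockdown. It was at 7.57, 8.13 and 9.78 CPM with shRenilla, at 6.60, 8.75 and 7.74 CPM with the first hairpin and at 7.03, 7.75 and 7.54 CPM with the second. Groups overlapped in HOXC13-AS, which changed by -0.17 on the log2 scale (standard error 0.115, edgeR adjusted p = 0.256). Whether it differed from HOXC13 was not tested. With dBRD9A, 6 of the noncoding RNAs were tested, HOXC13-AS was called higher and HOTAIR and LOC400043 lower (12.0 to 12.9 CPM with DMSO against 8.59 to 9.62 CPM for LOC400043, log2 fold change -0.46, edgeR adjusted p = 3.60e-05). Of all genes, 17.7% were called higher and 18.2% lower with dBRD9A. The tested remainder were HOXC-AS1 at -0.06, HOXC-AS2 at -0.02 and HOXC-AS3 at -0.01, none of them called. MIR196A2, MIR615, LOC100240734, LOC100240735 and FLJ12825 had at most 0.631 CPM in any library.

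**Figure D4:**
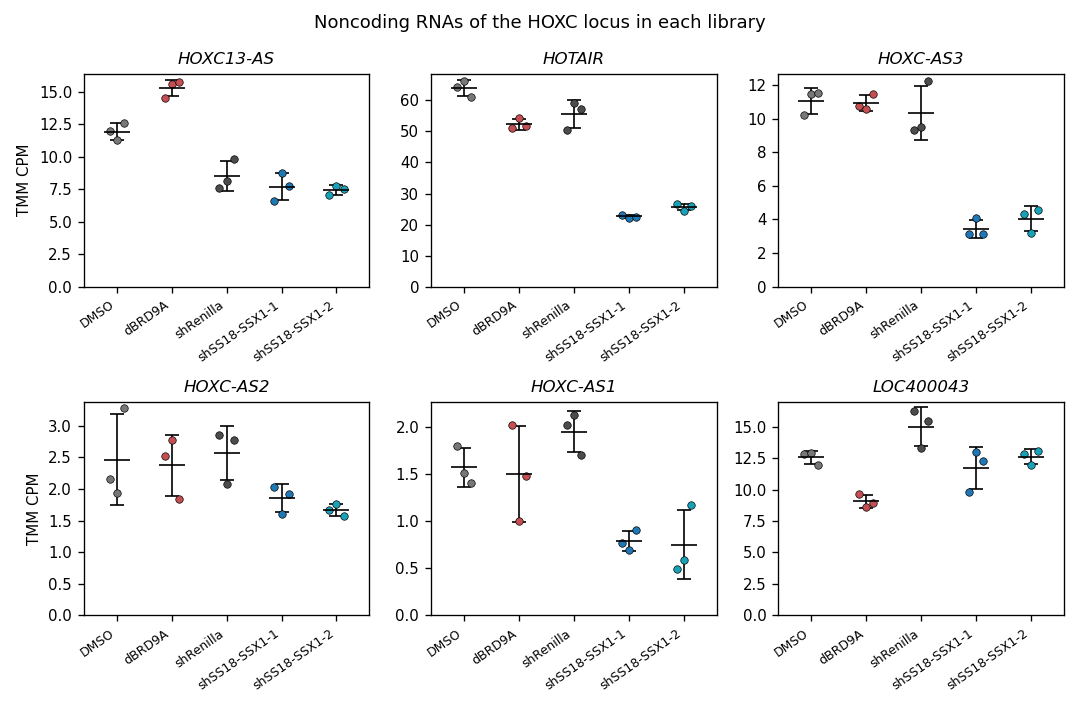
TMM CPM of the 6 noncoding RNAs of the locus with the highest counts, with a point per library, a bar at the mean and error bars of 1 SD (n = 3). HOTAIR and HOXC-AS3 are lower in both hairpin groups, HOXC13-AS and LOC400043 change with dBRD9A in opposite directions, and HOXC13-AS overlaps between shRenilla and the hairpins.

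HOXC4, HOXC5 and HOXC6 each have 2 or more transcript rows, and the row with the highest sum was kept. For HOXC5 that is NR_003084, a noncoding transcript, at 15.8 ± 0.402 CPM with shRenilla when scaled to library totals alone, against 6.85 ± 0.578 for the coding row NM_018953 (SD, n = 3). With the hairpins the coding row was at 3.87 ± 0.532 and 3.84 ± 0.0958. Tested in its place, the coding row of HOXC5 changed by -0.83 on knockdown (edgeR adjusted p = 3.72e-05), deeper than the kept row at -0.53. The other rows of HOXC4 (NM_153633) and HOXC6 (NM_004503) gave -0.75 and -0.72, each also called lower. With dBRD9A the coding row of HOXC5 was at 0.05 (edgeR adjusted p = 0.733) and remained uncalled, as the kept row did. With DMSO the kept row exceeded the other by a mean of 13.9 CPM (HOXC4), 11.6 (HOXC5) and 9.24 (HOXC6), scaled to library totals. Whether the kept rows of these genes count some of the same reads was not tested, so they may not be separate measurements.

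The effects of dBRD9A and knockdown on the members were unequal. In a fit of all 15 libraries, the log2 fold change with dBRD9A minus that on knockdown was above 0 and called for 9 of 9 members, where 17.5% of 14560 genes were. It was 1.54 for HOXC10 (standard error 0.0997, edgeR adjusted p = 1.65e-09), 1.15 for HOXC9 and 1.04 for HOXC13, which had moved in opposite directions. It was smallest for HOXC8, at 0.31 (standard error 0.0908, edgeR adjusted p = 0.0127). The experiments differ in agent, time (6 hr against 96 hr) and control, so these cannot be told apart.

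The controls of both experiments differed too. Relative to DMSO at 6 hr, cells with shRenilla at 96 hr had less HOXC12 (146 ± 10.0 against 68.6 ± 9.47 CPM, SD, n = 3 each, log2 fold change -1.08, standard error 0.0885, edgeR adjusted p = 8.15e-09) and less HOXC11 (98.7 ± 2.66 against 59.8 ± 2.03 CPM, log2 fold change -0.72, edgeR adjusted p = 9.36e-09). HOXC13 changed by -0.51 and HOXC10 by -0.32. HOXC4 was higher, by 0.41 (edgeR adjusted p = 0.000532). In all, 1 member was called higher and 6 lower, where 27.9% of genes were called higher and 26.6% lower. The calls of HOXC5 (-0.22, edgeR adjusted p = 0.0388) and HOXC6 (-0.19, edgeR adjusted p = 0.0225) were the weakest. HOXC5 was lost without DMSO replicate 1 (0.102), DMSO replicate 2 (0.142), shRenilla replicate 2 (0.0556) or shRenilla replicate 3 (0.101), and HOXC6 without DMSO replicate 1 (0.0807) or shRenilla replicate 1 (0.0889). HOXC8 (0.05) and HOXC9 (0.01) were not called. Infection, time and solvent cannot be told apart here.

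Of the paralogous genes, HOXB followed in part. On knockdown 9 HOXB genes were tested, 7 were called lower and 1 higher, where 22.1% of all genes were called lower and 22.5% higher. The median log2 fold change was -0.39 for HOXB, against -0.75 for HOXC. HOXB5 changed by -1.07, HOXB9 by -0.95, HOXB6 by -0.77 and HOXB2 by -0.63 (edgeR adjusted p at most 2.19e-06), and HOXB13 (0.34) was the 1 called higher. With dBRD9A, HOXB5 (0.24) and HOXB13 (0.18) were called higher and HOXB3 (-0.23) and HOXB9 (-0.17) lower, of 10 tested. These counts lie near the 17.7% and 18.2% of all genes and are no result about HOXB. No HOXA gene was tested in any comparison.

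The genes beside the cluster did not fall as a block. On knockdown 8 of the 10 listed were tested, 3 were called higher and 1 lower, with a median log2 fold change of -0.05. Such counts lie near the 22.5% and 22.1% of all genes and are no result about the list. CALCOCO1 (0.81), ATF7 (0.57) and ZNF385A (0.55) were higher, and CBX5, which encodes heterochromatin protein HP1 alpha, was lower (-0.33). With dBRD9A, ATP5G2 (0.11) was called higher and ZNF385A (-0.26) lower, of 8 tested. Of all genes, 17.7% were called higher and 18.2% lower.

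The TALE homeodomain proteins bind DNA together with HOX proteins. Of 11 such genes tested, 2 were called higher and 3 lower on knockdown, near the shares of all genes (22.5% and 22.1%), so the counts say nothing particular about the list. PBX3 (-0.73), PKNOX1 (-0.67) and TGIF2 (-0.33) were called lower and TGIF1 (0.32) higher. With dBRD9A 6 were called lower and 1 higher, where 18.2% of all genes were called lower and 17.7% higher. The lower ones included PKNOX2 (-0.28), PBX3 (-0.21), TGIF1 (-0.18) and MEIS1 (-0.16), and PKNOX1 (0.15) was the 1 called higher. Of 9 tested activators of HOX genes, 1 was called higher and 2 lower on knockdown, also near the shares of all genes. RARG, a retinoic acid receptor, changed by 0.37, and DOT1L, a histone H3 methyltransferase, by -0.31, with overlapping groups. The other gene called lower was CDX2, a homeobox gene that activates posterior HOX genes. It had 10 to 16 counts in the shRenilla libraries and 1 to 3 in the hairpin libraries, so it passed the filter only through the group where it was high, and its call carries no weight. With dBRD9A 5 were called lower and 0 higher (edgeR), against the same 18.2% and 17.7% of all genes. Those called were RARB (-0.48), RARG (-0.38), GDF11 (-0.30), DOT1L (-0.22) and PSIP1 (-0.12).

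Some markers of other cell types moved with the hairpins. The 9 smooth muscle and fibroblast markers summed to 41.4 to 48.2 CPM with shRenilla and to 1167 to 1467 CPM in the hairpin libraries. ACTA2 went from 0.0313 CPM to 49.2 and 63.1 CPM in the group means, and COL1A1 from 3.29 to 385 and 572 CPM. The 6 epithelial markers summed to 0.0486 to 0.487 CPM with shRenilla and to 65.3 to 158 CPM with the hairpins, with KRT8 at 27.3 and 57.5 CPM in the group means. In each hairpin group, 3 of the 6 epithelial markers and 3 of the 9 smooth muscle and fibroblast markers averaged under 1 CPM. The 6 leukocyte markers summed to at most 0.912 CPM in any library. The 6 endothelial markers summed to at most 7.74 CPM and did not move together. TEK had 0 counts with shRenilla and 13 to 43 in the hairpin libraries. The other endothelial marker tested went down, by -0.73 on the log2 scale for the mean of both hairpins (-1.23 and -0.23 for each). Several of these genes, among them ACTA2, KRT8 and TEK, passed the filter only through the hairpin groups, so no count of calls is given for the lists. Their part in the fall of the HOXC genes was not tested.

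Across the 15 libraries the members rose and fell together, with HOXC4 the least alike. Over log2 CPM, Pearson's r was 0.702 to 0.986 (median 0.944) in the 28 pairs without HOXC4 and 0.278 to 0.783 (median 0.505) in the 8 pairs with it. These values describe 5 groups that share treatments and scaling. Among 11059 other genes that averaged 5 CPM or more, the 5 most like the mean of the members were XRCC2 (r = 0.987), RPA1 (0.987), HNRNPH1 (0.986), AURKA (0.985) and CENPE (0.984), over 15 libraries.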

How the data were processed

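RNA-seq of 15 HSSYII libraries was analysed. The authors deposited raw counts per RefSeq transcript. The submitters' processing notes name STAR, featureCounts and hg19, with no versions stated. In the table of dBRD9A replicate 2, 4535 symbols are broken, and the number at the end of the field was taken as the count. The methods name spike-in RNA, but no row holds one. Of several rows per symbol the one with the highest sum was kept.

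Counts were tested with edgeR 4.0.16 (R 4.3.3), with the robust quasi-likelihood test, TMM scaling and filterByExpr (minimum count 10), separately for the 6 dBRD9A and DMSO libraries and the 9 hairpin libraries. Comparisons across experiments used all 15. Calls were made at an adjusted p of less than 0.05 (Benjamini-Hochberg), whatever the fold. Dividing each log2 fold change by the square root of its F statistic gave the standard error, and 95% intervals use edgeR's degrees of freedom. The test was also run on simulated counts with known changes, drawn independently for each library. The outcome of that run is not given here and is not used as support.

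All 9 members are given in each comparison. Of other lists, counts and up to 4 called members with the largest change are named, with each noncoding RNA of the locus, and the 5 genes most like the members. HOXB13, TGIF1 on knockdown, PKNOX1 with dBRD9A and PSIP1 were named after their values were seen. Members and lists were chosen with earlier results of these data known. Fits were repeated with DESeq2 1.42.0 and with limma 3.58.1 (voom), under different scalings and filters, on summed rows, in 1 fit of all 15 libraries, with a replicate block and with each library left out in turn. The other transcript row of HOXC4, HOXC5 and HOXC6 was added after seeing the data. Positions are from GENCODE 44 mapped to GRCh37. The paper's ChIP-seq and supplementary tables were not used here. A called gene among the TALE cofactors is not reported here.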

Additional observations from a re-analysis of the deposited data

Results flagged for a closer look

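The 9 HOXC genes were singled out because their response to dBRD9A differed from their response to knockdown in the test of the difference itself (edgeR's quasi-likelihood test over all 15 libraries, Benjamini-Hochberg adjustment). The log2 fold change with dBRD9A minus that on knockdown was 0.50 for HOXC4, 0.49 for HOXC5, 0.48 for HOXC6, 0.31 for HOXC8, 1.15 for HOXC9, 1.54 for HOXC10, 0.82 for HOXC11, 0.95 for HOXC12 and 1.04 for HOXC13, with adjusted p from 1.65e-09 (HOXC10) to 0.0127 (HOXC8). Each of these stayed above 0 and called under all 25 alternatives. Groups of 3 libraries were too small for a test of single libraries.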

How the results depend on the processing

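The counts of 9 members lower on knockdown, for the mean and each hairpin, held under 20 alternatives each, the count of 0 between the hairpins under 20, and the count of 9 for the difference of effects under 25. Leaving out 1 library gave 9 to 9 for these and 0 to 0 between the hairpins. The 5 members called with dBRD9A became 2 in the fit of all 15 libraries, and 3 to 5 on leaving out 1 library, with 3 reached without dBRD9A replicate 2. For shRenilla against DMSO, 7 members became 5 to 7. Of the values of single genes, 1298 kept their side of the threshold, 22 lost and 2 gained the call (HOXC9 with dBRD9A), and 1 called value reversed. Of the 1298, 35 changed sign, none of them called: HOXC5 with dBRD9A, HOXC9 between the controls, and 7 members between the hairpins. The reversed value was HOXC5 between shRenilla and DMSO, at 0.00916 on the log2 scale (adjusted p = 0.954) with its coding row. Same-numbered libraries did not visibly deviate together (r from -0.275 to 0.221, over 0.1 in 2 of 12 pairs), and a differently numbered pair reached 0.345. Deviations from a mean of 3 libraries sum to 0, so whether numbers mark shared cultures or batches cannot be told from them. With the replicate block 5 members were called for dBRD9A, 9 on knockdown, 9 with each hairpin, 0 between the hairpins, 9 for the difference of effects and 7 between the controls, and it changed no call. Under TMM a loss common to most genes would go unseen, and without strand, antisense reads cannot be separated.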
